A study of Oryctolagus cuniculus with 4 samples.

Results

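The genes that code for the general transcription machinery and for splicing proteins were compared between parthenote and in vivo fertilised rabbit blastocysts. Members were chosen by words in the annotation of each array feature, a 60-base oligonucleotide printed on the array. The words were those for a splicing factor, for a scaffold attachment factor, for a heterogeneous nuclear ribonucleoprotein (hnRNP), for a subunit of the mediator complex, for a general transcription factor, and the letters TAF with a number. GTF2B, HNRNPD and SAFB2 were added by name. In all, 138 of 43603 features met this rule, and they belonged to 60 of 10372 named genes. These were 12 general transcription factor genes, 5 genes with TAF in their annotation, 12 Mediator genes, 10 hnRNP genes and 21 splicing factor genes. HNRNPD, SAFB2 and scaffold attachment factors were not analysed here.

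Transcription of a protein-coding gene starts when general transcription factors gather at its promoter with RNA polymerase II. The TATA-binding protein and the TAF proteins recognise the promoter, TFIIB bridges to the polymerase, TFIIH opens the DNA and phosphorylates the polymerase, and Mediator relays signals from regulators bound elsewhere. The transcript is then coated by hnRNPs and spliced by small nuclear ribonucleoproteins (snRNPs), with SR proteins, rich in arginine and serine, helping to choose the exons. In the embryo, this machinery is first supplied by the oocyte and is made from the embryo's own genome after its activation.

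RNA came from blastocysts of New Zealand White rabbits at 6 days. Parthenotes were obtained from ovulated oocytes that were activated with electrical pulses and then exposed to cycloheximide and 6-DMAP, placed into the oviducts of recipient does and recovered from the uterus, so that they carried no paternal genome. In vivo fertilised embryos were untreated and were recovered from the uterus of inseminated does. Each of the 4 arrays held a pool of parthenotes labelled with Cy3 and a pool of fertilised embryos labelled with Cy5. A pool averages its embryos, and only embryos that had reached the blastocyst stage entered it. The dyes were swapped on 0 arrays, so dye and group cannot be told apart. In pooled RNA, fewer cells of a type and less RNA per cell cannot be told apart either. Values are log2 ratios of parthenote over fertilised, negative where the parthenotes were lower. Each gene was represented by its brightest feature, and a gene was called where the adjusted p in limma was under 0.05.

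The features behind the main results are shown here, since each ratio rests on the stretch of transcript that a feature matches. They lie in a frame without stop codons, counted from the start of the transcript model on the array. Capitals mark the bases that overlapping features of a gene share, and SRSF5 and SF3B2 had a single feature each. The 3 features of GTF2B start at bases 772, 825 and 865 of its model, those of GTF2H1 at 1506 and 1546, that of SRSF5 at 518 and that of SF3B2 at 1700.
GTF2B from base 772: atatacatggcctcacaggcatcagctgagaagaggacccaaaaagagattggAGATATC
GTF2B from base 825: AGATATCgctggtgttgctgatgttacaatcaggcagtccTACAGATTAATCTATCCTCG
GTF2B from base 865: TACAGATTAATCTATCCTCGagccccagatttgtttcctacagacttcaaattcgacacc
GTF2H1 from base 1506: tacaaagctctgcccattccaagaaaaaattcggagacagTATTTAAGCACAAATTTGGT
GTF2H1 from base 1546: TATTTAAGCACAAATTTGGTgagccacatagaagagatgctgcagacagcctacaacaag
SRSF5 from base 518: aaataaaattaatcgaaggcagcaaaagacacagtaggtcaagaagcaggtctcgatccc
SF3B2 from base 1700: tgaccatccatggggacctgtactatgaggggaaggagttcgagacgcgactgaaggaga

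The array files gave positions for these features without naming the genome build. The GTF2B features were placed on the plus strand at chr13:75810614-75814177, chr13:75814171-75814230 and chr13:75814211-75814270. The first of them covers 3564 bases for 60 bases of sequence, so it crosses an intron, whereas the others are unbroken. SF3B2 was placed at chr1:193818187-193819269 on the plus strand, 1083 bases, and also crosses an intron. The features of GTF2H1 share 20 bases but were placed at chr9:51678888-51678946 and at chr2:96722312-96722356, so the files gave this gene no single position. SRSF5 was unplaced.

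Among the 60 genes, 14 had lower and 1 had higher expression in parthenotes, and 45 were not called. The 14 lower genes were 23.3% of the members, against 12.3% of all named genes, and the higher gene was 1.67%, against 11.6%. In both directions together, 25.0% of the members were called and 23.9% of all named genes. Nearly all members were measurable, as 59 of 60 exceeded the background clearly in each channel of every array. Of the 6992 named genes with that property, 29.3% were called, 14.6% lower and 14.7% higher. The share of members called was thus near the background, and their calls were mostly in the lower direction. No called change was larger than 1.69-fold.

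**Figure D1:**
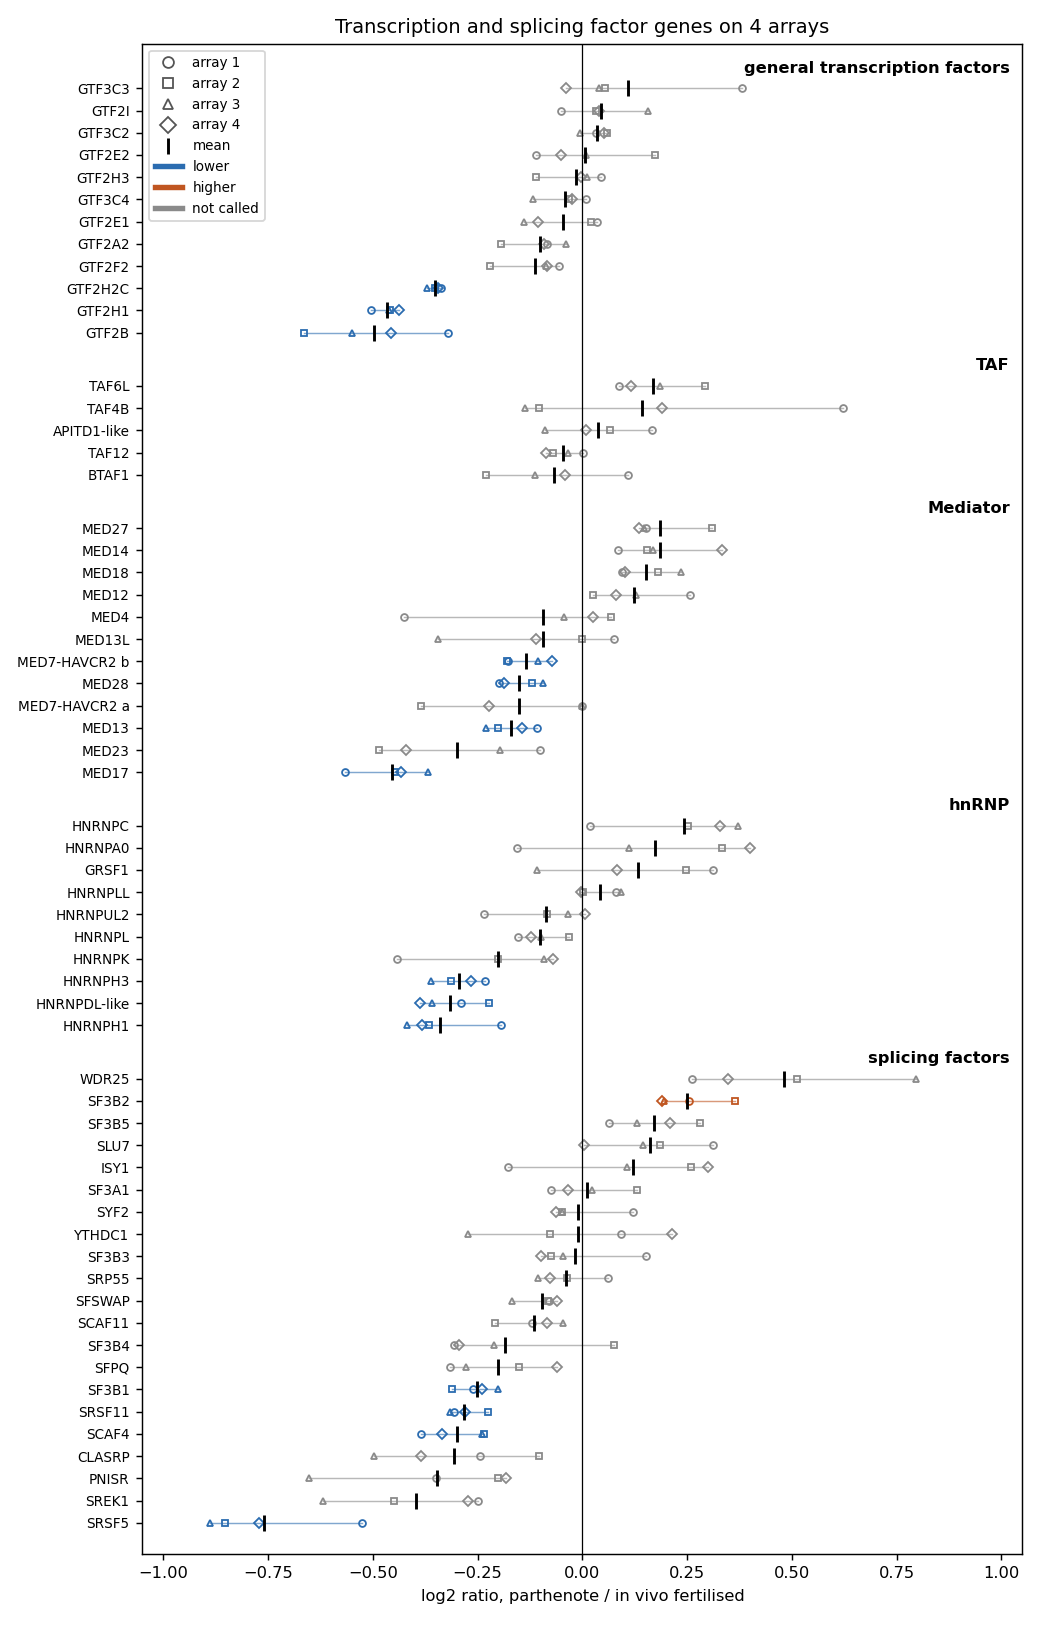
Log2 ratio of parthenote over in vivo fertilised (x axis) for each of the 60 member genes (y axis, by class), with an open symbol for each of the 4 arrays, a black bar at the mean, and colour for the call. The 14 lower genes lie in 4 of the 5 classes, and SRSF5 is the lowest at -0.76. SF3B2 is the single higher gene. With normexp background correction and median centring it was below 0, where the median of the bright named genes was -0.39.

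Over all members, called ones included, the mean ratio was below 0 in 39 of 60 members, 65.0%, against 49.1% of named genes. The ratio was below 0 on all 4 arrays in 25 members (41.7%, against 25.9%) and above 0 on all 4 in 10 (16.7%, against 22.6%). At an unadjusted p under 0.05, 24 members were lower, 40.0% against 22.1%. For the bright named genes these shares were, in the same order, 51.6%, 30.0%, 28.4% and 26.0%, closer to those of the members except for ratios above 0. Among the 45 members that were not called, 25 had a mean below 0 (55.6%), 11 were below 0 on all 4 arrays (24.4%) and 10 were lower at an unadjusted p under 0.05 (22.2%). Among the 7898 named genes that were not called, these shares were 48.3%, 17.9% and 12.9%. The median over members was -0.08, -0.08, -0.09 and -0.07 on arrays 1 to 4, with a mean of -0.08 ± 0.01 (SD, n = 4). On the same arrays the median of the bright named genes lay between -0.03 and 0.01. The median of the members was thus the lower one on each array. These shares describe the list and were not tested.

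**Figure D2:**
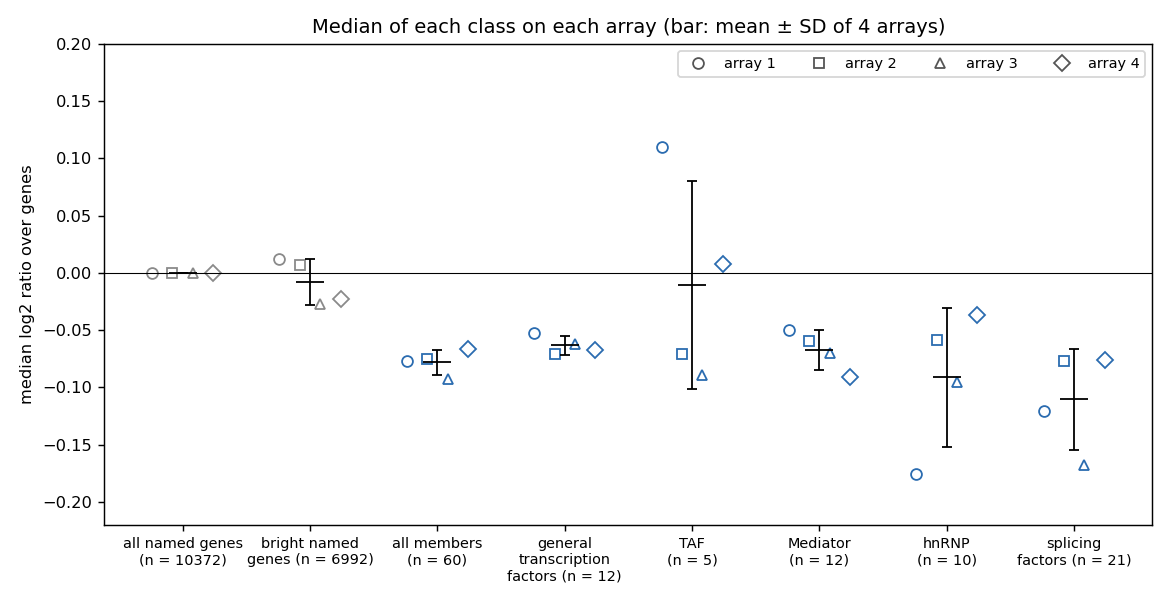
Median log2 ratio over genes (y axis) on each of the 4 arrays (symbols) for all named genes, the bright named genes, all members and each class (x axis), with the mean and SD of the 4 arrays as bars. The medians of all members lie between -0.09 and -0.07, and those of TAF genes fall on both sides of 0.

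General transcription factors gave 3 lower genes of 12 (25.0%) and no higher one, beside 14.6% lower and 14.7% higher of the bright named genes. The strongest was GTF2B, which codes for TFIIB. Its log2 ratio was -0.32, -0.66, -0.55 and -0.46 on arrays 1 to 4. The processed signal ran from 875 to 1167 in the parthenote channels and from 1200 to 1554 in the fertilised channels, without overlap. The mean was -0.50 ± 0.14 (SD, n = 4), 1.41-fold lower, with an adjusted p of 0.027. All 3 GTF2B features shown above were called lower, at -0.38, -0.50 and -0.44. This includes the feature that crosses an intron.

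GTF2H1 codes for a structural subunit of TFIIH. Its ratio was -0.50, -0.46, -0.46 and -0.44, which gave a mean of -0.47 ± 0.03 (SD, n = 4) and an adjusted p of 0.0045. The overlapping feature of this gene gave a mean of -0.47 as well. GTF2H2C belongs to the copies of the gene for another TFIIH core subunit, and the array's model is annotated as a non-coding RNA. It measured -0.34, -0.35, -0.37 and -0.34 (mean -0.35 ± 0.01, adjusted p = 0.0039), the smallest spread between arrays of any member. All 5 GTF2H2C features were called lower, with means between -0.18 and -0.36, but they overlap and cover only 2 separate sites. Since GTF2H2 has near-identical copies, the transcript behind GTF2H2C is uncertain. Both TFIIH genes held their call when any single array was left out.

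The other 9 general transcription factor genes were not called and lay between -0.11 and 0.11. They were GTF2A2 of TFIIA, GTF2E1 and GTF2E2 of TFIIE, GTF2F2 of TFIIF, GTF2H3 of TFIIH, GTF2I, and the TFIIIC genes GTF3C2, GTF3C3 and GTF3C4, which serve RNA polymerase III. GTF2H3 had a mean of -0.01 ± 0.07. Genes named here and below that did not pass the test were chosen after their values were seen, apart from the TAF class. One feature of GTF2F2 was called lower (-0.20, adjusted p = 0.034), but its 2 brighter features were not. The class median was -0.06 ± 0.01 (SD, n = 4 arrays).

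Of the 5 genes with TAF in their annotation, limma called 0. At an unadjusted p under 0.05 there was 1, and the methods' t-test also called 0 after adjustment. TAF12, a histone-fold subunit of TFIID, had ratios between -0.09 and 0.00 and a mean of -0.05. TAF6L, a TAF6 relative found in histone acetyltransferase complexes, lay above 0 on all 4 arrays, at 0.09, 0.29, 0.18 and 0.12 (adjusted p = 0.079). With normexp and median centring it was at -0.34, where the median of the bright named genes was -0.39. TAF4B, known from germ cells, varied more between arrays than any other member, from -0.14 on array 3 to 0.62 on array 1, so that its mean of 0.14 ± 0.35 was uninformative. BTAF1, which strips the TATA-binding protein from DNA, had a mean of -0.07 ± 0.14. APITD1-like (mean 0.04 ± 0.11) entered through the words "TAF9-like domain" and is related to a centromere protein. The class median changed sign between arrays, from -0.09 on array 3 to 0.11 on array 1.

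Mediator gave 4 lower genes of 12 (33.3%) and no higher one, beside 14.6% lower and 14.7% higher of the bright named genes. The methods' t-test called 1 of the 12 lower. MED17, a scaffold of the head module, was the largest, with ratios of -0.57, -0.45, -0.37 and -0.43. Its signals were 1429 to 1660 in parthenotes and 1928 to 2226 in fertilised embryos, apart on all arrays. The mean of -0.45 ± 0.08 (SD, n = 4) corresponds to a 1.37-fold lower level (adjusted p = 0.014). The other 3 called genes changed far less. MED13, of the kinase module, had a mean of -0.17 ± 0.05 (adjusted p = 0.032), and MED28, of the head module, had -0.15 ± 0.05 (adjusted p = 0.035). A transcript annotated as MED7, whose gene identifier now belongs to the overlapping immune receptor gene HAVCR2, had -0.13 ± 0.05 (adjusted p = 0.047). It is drawn as MED7-HAVCR2 b, and its gene is uncertain. The calls of MED13, MED28 and this transcript were lost when any array was left out.

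The remaining 8 Mediator genes lay on both sides of 0 and none was called. MED12, MED14, MED18 and MED27 were above 0 on all 4 arrays, with means of 0.12 to 0.19 and adjusted p between 0.055 and 0.16. MED23 was below 0 on all 4 arrays, at -0.10, -0.48, -0.20 and -0.42 (adjusted p = 0.097). MED4 and MED13L each had a mean of -0.09 with mixed signs. The 5 features of MED18 differed along the transcript, with means of 0.15 and 0.14 at the 2 brightest and of -0.04 to -0.02 at the 3 upstream of them. A further MED7 model, drawn as MED7-HAVCR2 a, was well above background on array 2 only. The class median was -0.07 ± 0.02.

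Among the hnRNPs, 3 of 10 genes were lower (30.0%) and none higher, beside 14.6% and 14.7% of the bright named genes. HNRNPH1 and HNRNPH3 code for related proteins that bind runs of guanines in RNA. HNRNPH1 measured -0.19, -0.37, -0.42 and -0.38, with signals of 4907 to 5594 in parthenotes and 5615 to 7208 in fertilised embryos. Its mean was -0.34 ± 0.10 (SD, n = 4, adjusted p = 0.027). All 4 of its features, at 2 separate sites, were called lower, between -0.31 and -0.40. HNRNPH3 measured -0.23, -0.31, -0.36 and -0.27 (mean -0.29 ± 0.06, adjusted p = 0.015). The groups did not overlap for HNRNPH1, whereas the channel signals of HNRNPH3 did so between arrays. The HNRNPDL-like transcript, listed as a pseudogene in the reference table, had means of -0.32 to -0.43 at its 3 features and an adjusted p of 0.019 at the brightest, so RNA of HNRNPDL itself could not be told apart from it.

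HNRNPC codes for a protein that packages nascent transcripts. Its brightest feature had ratios of 0.02, 0.25, 0.37 and 0.33 and was not called (mean 0.24 ± 0.16, adjusted p = 0.11). Without array 1 it was called higher (0.32, adjusted p = 0.045). It was also called higher with unpaired channels and with base composition regressed out (adjusted p = 0.047 in each). The same held for normexp and loess (0.046) and for repaired backgrounds and loess (0.021). With normexp and median centring, the background of a spot is modelled and the arrays are centred. There it turned to -0.65, while the median of the bright named genes was -0.39. The remaining alternatives run on this feature left it uncalled. The other 10 features overlap one another within bases 933 to 1001 of the transcript, and 5 of them were called higher at means of at most 0.11. A pair of these features has the same sequence, and gave 0.05 (adjusted p = 0.061, not called) and 0.11 (adjusted p = 0.030, called). At ratios of this size, copies of the same feature thus fell on both sides of the threshold. HNRNPK was below 0 on all arrays at its brightest feature, from -0.44 on array 1 to -0.07 on array 4 (adjusted p = 0.18). HNRNPL had 2 of 5 features called lower, all within -0.11 to -0.10. HNRNPA0, HNRNPLL, HNRNPUL2 and GRSF1 were not called and changed sign between arrays. The class median was -0.09 ± 0.06, with its lowest value of -0.18 on array 1.

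**Figure D3:**
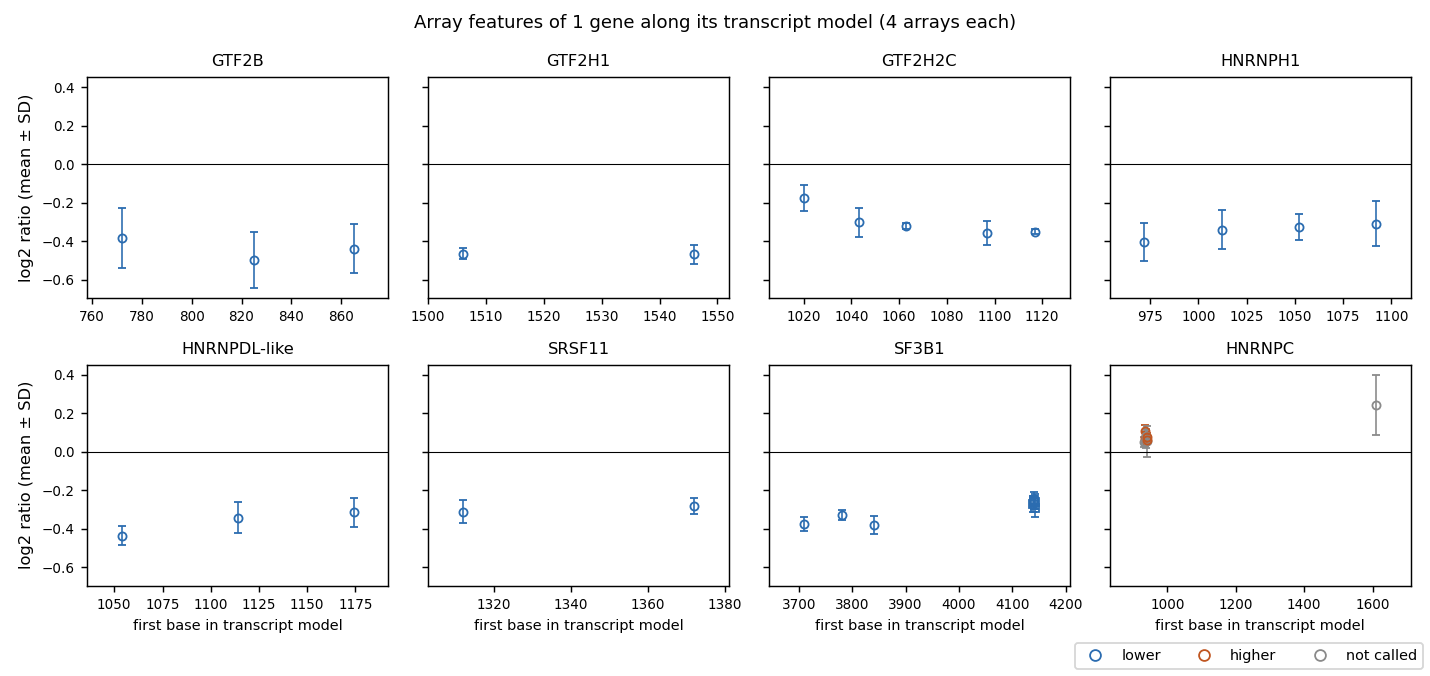
Mean log2 ratio with SD over 4 arrays (y axis) of every feature of 8 genes, against the first base of the feature in its transcript model (x axis), coloured by call; in the SF3B1 panel the group at the right belongs to a second transcript model. All features of the 7 lower genes were called lower, and HNRNPC lies above 0 in the deposited ratios.

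Splicing factors formed the largest class, with 4 lower genes (19.0%) and 1 higher gene (4.76%) of 21. Of the bright named genes, 14.6% were lower, near the share of this class, and 14.7% were higher. SRSF5, an SR protein, had the lowest ratio of all members. It measured -0.53, -0.85, -0.89 and -0.77, and the signals were 1694 to 2009 in parthenotes and 2893 to 3134 in fertilised embryos. No parthenote pool reached a fertilised pool. The mean of -0.76 ± 0.16 (SD, n = 4) was a 1.69-fold lower level (adjusted p = 0.017). SRSF5 rests on the single feature shown above.

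SRSF11, an SR-related protein, had ratios of -0.31, -0.23, -0.32 and -0.28 (mean -0.28 ± 0.04, adjusted p = 0.010), and both of its features were called lower. SCAF4, annotated on the array as an arginine- and serine-rich splicing factor and known to bind the tail of RNA polymerase II, measured -0.39, -0.23, -0.24 and -0.33. Its mean was -0.30 ± 0.07 (adjusted p = 0.021). Neither gene had an array above 0.

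SF3B1 and SF3B2 code for subunits of the same complex, SF3b, with which the U2 snRNP recognises the branch point of an intron. They changed in opposite directions, except with normexp and median centring. In that setting SF3B2 was at -0.37, and the median of the bright named genes was itself -0.39. SF3B1 measured -0.26, -0.31, -0.20 and -0.24 (mean -0.25 ± 0.05, adjusted p = 0.014). Its 8 features were all called lower with means between -0.38 and -0.25. They lie on 2 transcript models and cover 4 separate sites, counted within each model. SF3B2 measured 0.25, 0.36, 0.19 and 0.19 (mean 0.25 ± 0.08, adjusted p = 0.032). The channel signals of SF3B1 were apart, at 14196 to 15018 in parthenotes and 16750 to 17993 in fertilised embryos. Those of SF3B2 overlapped, at 1445 to 1880 and 1267 to 1461, although the parthenote pool was the higher one on each array. The other SF3B genes among the members were not called, with means of -0.18 for SF3B4, -0.02 for SF3B3 and 0.17 for SF3B5. SF3A1, which is not an SF3B gene, was not called either, at a mean of 0.01.

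**Figure D4:**
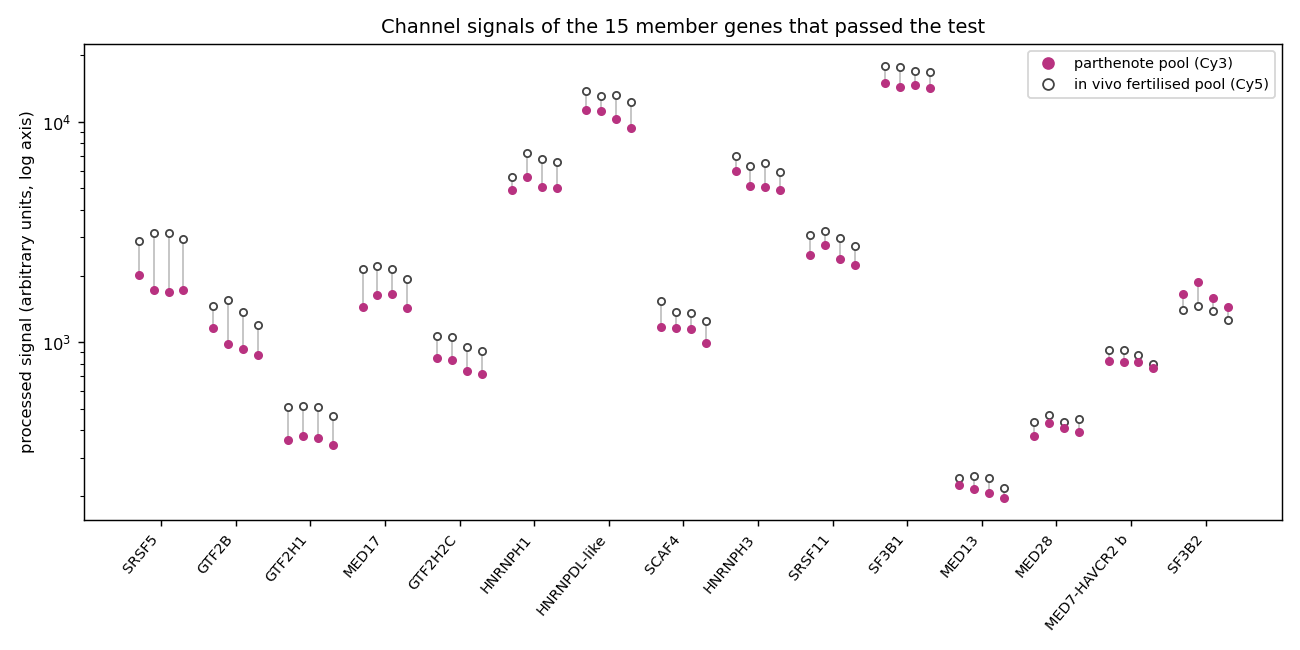
Processed signal in arbitrary units (y axis, log axis) of the 15 called member genes (x axis, lowest ratio first), with filled points for the parthenote pools, open points for the in vivo fertilised pools and a line joining the pools of an array. The parthenote point is the lower one on all 4 arrays for 14 genes and the higher one for SF3B2. The ratio of SF3B2 reverses with normexp and median centring, where the median of the bright named genes was -0.39.

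Of the other 12 splicing factor genes, SREK1 (mean -0.40, adjusted p = 0.052), PNISR (-0.35, 0.10) and CLASRP (-0.31, 0.083) were below 0 on all arrays without passing the threshold. These are further proteins with arginine- and serine-rich stretches. SFPQ (-0.20), SCAF11 (-0.12) and SFSWAP (-0.10) were also below 0 on all arrays, and 2 of 5 SFSWAP features were called lower. SRP55, SYF2, YTHDC1 and ISY1 changed sign between arrays. WDR25, which entered through the words for a splicing factor-like protein, had the highest ratio of all members at 0.26, 0.51, 0.80 and 0.35, but its spread was wide (mean 0.48 ± 0.24, adjusted p = 0.065). SLU7, which acts in the second step of splicing, was above 0 on all arrays at a mean of 0.16 (adjusted p = 0.16). The class median was -0.11 ± 0.04.

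Of the 138 features, 39 were called lower and 6 higher, against 11.1% and 9.53% of all features on the array. Features of a gene often overlap, so these counts are not independent of the gene counts. Of the 6 higher features, 5 were the overlapping ones of HNRNPC, and 8 of the lower features belonged to SF3B1. In 0 of the 28 genes with several features were features called in opposite directions. Of the 15 called genes, 8 had a single feature, and in the other 7 each feature was called. The features of a gene differed by a median of 0.09 in their mean ratio, which is as large as many of the changes reported here. In the 18 genes with features at 2 or more separate sites, this median was 0.12. Across members the SD between arrays had a median of 0.09. Only the 15 called genes and 4 further genes (GTF2F2, HNRNPL, HNRNPC and SFSWAP) had any called feature. The groups of channel signals were apart in 10 of the 15 called genes and in 15 of all 60 members, 25.0%, against 32.2% of named genes.

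Other genes of transcription and splicing were taken from lists of names. Their counts stand beside 12.3% lower and 11.6% higher of all named genes, and 14.6% and 14.7% of the bright ones. RNA polymerase II subunits gave 0 calls in either direction among 4 measured of 12 listed, with 1 at an unadjusted p under 0.05 and 0 by the methods' t-test. The list of the TATA-binding protein family, the TFIIH enzymes and the Mediator kinase module gave 3 lower (42.9%) and 0 higher of 7 measured. CDK7, the TFIIH kinase, measured -0.33, -0.34, -0.20 and -0.24 (mean -0.28 ± 0.07, adjusted p = 0.021). TBP, the TATA-binding protein, measured -0.21, -0.26, -0.21 and -0.26 (mean -0.24 ± 0.03, adjusted p = 0.0088). The third, named after its value was seen, was CCNH, the cyclin partner of CDK7, at -0.14 (adjusted p = 0.046). The TFIIH genes ERCC3 (mean -0.06, adjusted p = 0.12) and MNAT1 (mean -0.05, adjusted p = 0.62) were measured and not called.

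Elongation factors gave 3 lower (23.1%) and 0 higher of 13 measured. SUPT16H, of a histone chaperone, had a mean of -0.31 ± 0.10 (adjusted p = 0.033), and SUPT5H, which acts in pausing and elongation, had -0.30 ± 0.10 (adjusted p = 0.034). The core proteins of the snRNPs gave 1 lower of 14 (7.14%), LSM6, by only -0.07. Spliceosome assembly factors gave 2 lower (13.3%) and 1 higher (6.67%) of 15, no more than the shares of bright named genes. PRPF3, a snRNP protein, and DHX15, a helicase that takes spliceosomes apart, had means of -0.28 and -0.25. CDC40, needed in the second step of splicing, had a mean of 0.44. It turned to -0.16 with normexp and median centring, where the median of the bright named genes was -0.39.

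Regulators of alternative splicing outside the name rule gave 9 lower (40.9%) and 3 higher (13.6%) of 22, with the largest called ratios of these lists. Of the bright named genes, 14.6% were lower and 14.7% higher. ESRP2, a splicing regulator of epithelia, measured -0.81, -0.37, -0.60 and -0.88 (mean -0.66 ± 0.23, adjusted p = 0.036). CLK1, a kinase of SR proteins, measured -0.68, -0.49, -0.76 and -0.48 (mean -0.60 ± 0.14, adjusted p = 0.019). MBNL2 and CELF2, RNA-binding regulators with opposing roles in muscle, were higher, with means of 0.69 ± 0.26 (adjusted p = 0.040) and 0.56 ± 0.16 (adjusted p = 0.027). The median of this list was -0.09. By limma, the lower share was thus above that of the bright named genes, and the higher share was not. The methods' t-test called 5 of these regulators lower and 0 higher.

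**Figure D5:**
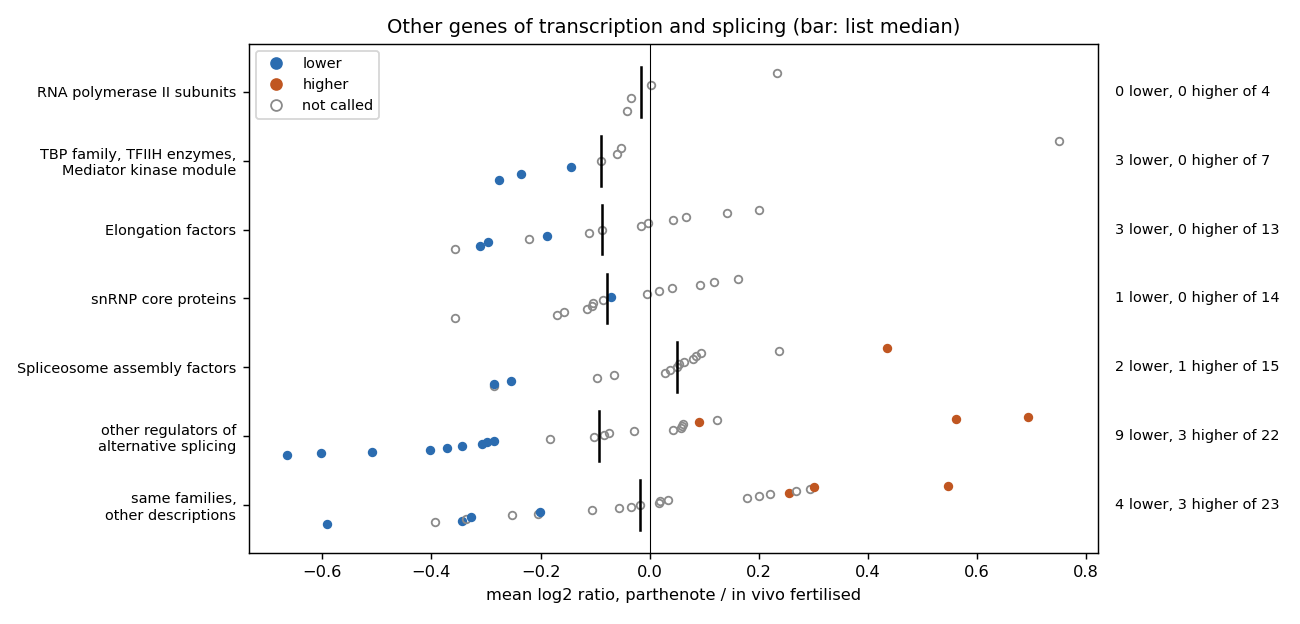
Mean log2 ratio over 4 arrays (x axis) of each measured gene in 6 lists of other transcription and splicing genes and among genes of the same families with other descriptions (y axis), filled where called, with a bar at the median and the counts at the right. The regulators of alternative splicing hold 9 lower and 3 higher genes of 22 by limma (5 and 0 by the methods' t-test). The RNA polymerase II subunits hold 0 called genes.

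Markers of other cells moved with the groups on the same arrays. Among all named genes, 11.6% were called higher and 12.3% lower. Of the measured markers of motile ciliated cells, 4 of 8 were higher in parthenotes and 0 lower, and their summed signal was 1133 to 3145 in parthenotes and 359 to 493 in fertilised embryos, while FOXJ1 was not above background in any channel. Secretory epithelium of the oviduct and uterus gave 3 higher of 4 (summed signal 8768 to 33228 against 4556 to 8229). The gene not called, WFDC2, was the brightest, at a mean log2 signal of 12.3 against at most 10.8 for the others. Its ratio was -1.52 on array 1 and above 0 on the other arrays, with a mean of 0.01. Leukocyte markers gave 3 higher of 6 (401 to 465 against 209 to 226), with 2 of the 6 not above background in any channel. Among markers of the embryo, trophectoderm gave 1 lower and 1 higher of 5 (22093 to 30755 against 18229 to 20218). KRT8, the higher gene, dominates this sum, at a mean log2 signal of 14.2 against at most 10.6 for the others. GATA2, TFAP2C and ELF3 were below 0 on all 4 arrays, GATA3 had a mean of 0.12, and the list median was -0.26. Pluripotent epiblast gave 1 higher of 3 (11810 to 14632 against 10359 to 11532). The higher gene, POU5F1, was the brightest, at a mean log2 signal of 13.1 against 11.4 for DPPA5 and 8.79 for LIN28A. POU5F1 and DPPA5 were above 0 on all 4 arrays, whereas LIN28A was below 0 on all 4 (mean -0.22, adjusted p = 0.12). Primitive endoderm gave 0 of 2 by limma (950 to 1192 against 1019 to 1581), with 2 at an unadjusted p under 0.05 and 0 by the methods' t-test. Their part in the ratios of the transcription and splicing genes was not tested.

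Most calls needed all 4 arrays. Without array 1, 2, 3 or 4, the member genes called lower numbered 9, 4, 6 and 2, beside 8.01%, 2.74%, 3.54% and 1.82% of all named genes. Those called higher numbered 1, 1, 0 and 0, beside 7.04%, 2.52%, 3.08% and 1.47% of all named genes. From the other lists, family genes included, 16 called genes were followed, up to 2 per direction in each. Without arrays 1 to 4 in turn, 12, 14, 13 and 16 of these lost the call. By the methods' t-test 10 of the 16 lost it. The split of lower and higher members was 14 and 1 with the ratios as deposited. It was 14 and 4 with each array centred on its bright features, beside 13.7% and 14.4% of all named genes. With the base composition of the features regressed out it was 19 and 6, beside 15.9% and 14.3%. With normexp and median centring it was 53 and 1, but there the median of the bright named genes itself moved from -0.01 to -0.39, and 46.8% of all named genes were lower.

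The direction of each called member was the same whichever array was left out. The call of SRSF11 was lost only without array 4 (adjusted p = 0.069). Those of MED17 and HNRNPH3 were lost without arrays 2 and 4, with adjusted p of up to 0.080, and that of SF3B1 without arrays 1 and 4 (up to 0.080). GTF2B, HNRNPH1, SCAF4 and SRSF5 kept their call without array 1 alone, with adjusted p of up to 0.12, 0.12, 0.10 and 0.094 without the others. HNRNPDL-like, SF3B2, MED13, MED28 and the MED7-HAVCR2 b transcript kept it in none of these fits, with adjusted p of up to 0.085, 0.11, 0.12, 0.14 and 0.15. The ratio moved for GTF2B between -0.56 and -0.44 and for SRSF5 between -0.84 and -0.72.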

How the data were processed

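Two-colour arrays of 4 pairs of pools were analysed. The authors scanned them and extracted the spots with Agilent Feature Extraction 10.10.1.1 under its default parameters. The mean and local background intensities the authors deposited are not normalised, and their processed intensities have had the background subtracted and the dyes balanced within the array, with surrogate values for dim spots. The deposited log10 ratio of each spot is processed Cy5 over processed Cy3, and it is 0 where neither channel is usable. The value table of the series holds it with its sign turned, so that alternative is no separate check. 0 columns of that table were without a sample. Of 43803 spots per array other than controls, 26 to 48 were marked as outliers and left out. The spots that the scanner software marked as clearly over background numbered 25805 to 26339 for parthenotes and 27508 to 27835 for fertilised embryos. The number of arrays limits the precision.

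Log10 ratios were turned to log2 of parthenote over fertilised and averaged per feature. The 43595 features measured on 3 arrays or more entered the moderated test of limma 3.58.1, run under R 4.3.3 (two-sided, mean against 0), with Benjamini-Hochberg adjustment over all of them and a threshold of 0.05. Scripts were tested on simulated data. Names came from RefSeq accessions (13253 features), gene identifiers (9217) or other annotation through a table of assembly mOryCun1.1, used for names only, and 20329 features had none. Where several features bore a gene's name, the one with the highest mean signal over the 8 channels was used.

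Members and lists were chosen with earlier results of these data known. Named genes were GTF2B, up to 4 per class and direction with the largest ratio among called genes of the same sign on all 4 arrays, every gene of a class of 5 or fewer, and up to 2 per direction in a list. The list of family genes with other descriptions was made later. A gene of the lists was left out and is not reported here. Alternatives were normexp background correction (offset 50) with loess or median centring, the ratio of processed intensities, centring on bright features, a filter on dim features, marked spots kept, the methods' t-test, unpaired channels, a robust fit with a trend over intensity, base composition regressed out, the mean of a gene's features, each array left out and, added after seeing the data, normexp and loess with the background of 17 spots repaired. Tools also included Python 3.11.15, pandas 2.3.3 and matplotlib 3.10.9.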

Additional observations from a re-analysis of the deposited data

Results flagged for a closer look

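A single array stood apart from the others in 2 of 65 values examined, the ratios of the 60 member genes and the medians of the 5 classes. Chance alone gives such a value in about 1 of 20 groups of arrays. MED27 measured 0.31 on array 2 and between 0.14 and 0.15 on the other arrays. SYF2 measured 0.12 on array 1 and between -0.06 and -0.05 on the others. Neither gene was called, and none of the 15 called members had such an array.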

How the results depend on the processing

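Under the alternatives run, the medians of all classes except TAF stayed below 0, and every called member except SF3B2 kept its direction. The main counts were 15 called, 14 lower and 1 higher. Normexp with median centring gave 54 called, 53 of them lower, and class medians of -0.59 (general transcription factors), -0.50 (TAF), -0.48 (Mediator), -0.72 (hnRNP) and -0.68 (splicing factors), as the median of all named genes moved to -0.16. In that setting SF3B2 reversed to -0.37, APITD1-like to -0.62, TAF4B to -0.013, TAF6L to -0.34, CDC40 to -0.16, GTF2A1 to -0.35 and TAF7 to -0.12. With base composition regressed out, 25 were called, 6 of them higher, APITD1-like was at -0.032 and the general transcription factors at -0.091. With repaired backgrounds and loess, an alternative chosen after seeing the data, 24 were called, 6 of them higher, with general transcription factors at -0.047. Normexp and loess gave 3 higher and medians of -0.048 (general transcription factors) and -0.043 (Mediator). Centring on bright features gave 4 higher and -0.048 for general transcription factors. The dim filter and the ratio of processed intensities each gave 3 higher, and the mean of a gene's features gave 2 higher, with -0.077 for general transcription factors and -0.042 for Mediator. The methods' t-test called 9, all of them lower and 0 higher. The pairing of the pools on an array is part of the design, and with no replicate block 2 genes were higher and 12 lower. The cause of these differences was not tested.

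Leaving out each array in turn gave 2 to 10 called members, 2 to 9 lower and 0 to 1 higher, with fewer arrays in each fit. APITD1-like then ran from -0.0055 to 0.080 and TAF4B from -0.018 to 0.24. No slide or scan block was run, as there was 1 slide and 1 scan time. The design has no dye swap, and 4 arrays limit the precision. The value table holds the same ratios and is no test of stability.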

Other observations

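Genes of the same families whose annotation used other words, 23 in number, were listed after the data were seen. They moved in both directions, with 4 lower (17.4%) and 3 higher (13.0%) in parthenotes and a median of -0.02. These shares were near the 14.6% and 14.7% of bright named genes. The genes below were named after their values were seen. SRSF12, an SR protein, measured -0.41, -0.58, -0.82 and -0.55 (mean -0.59 ± 0.17, adjusted p = 0.026), and TAF1D, of the RNA polymerase I machinery, had a mean of -0.34 ± 0.08 (adjusted p = 0.018). HNRNPU and MED6 were lower too, with means of -0.33 (adjusted p = 0.047) and -0.20 (adjusted p = 0.031).

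Higher were TAF7, a TFIID subunit, at 0.45, 0.51, 0.69 and 0.54 (mean 0.55 ± 0.10, adjusted p = 0.014), GTF2A1, the large TFIIA gene, at 0.30 ± 0.09 (adjusted p = 0.027), and TAF10 at 0.25 ± 0.04 (adjusted p = 0.013). With normexp and median centring, TAF7 and GTF2A1 turned negative, while the median of the bright named genes was -0.39.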
